A study of Rattus norvegicus with 4 samples.

Results

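Herpud1 and 9 further genes of endoplasmic reticulum (ER) folding and amino acid stress were followed in surface colonocytes, the absorptive cells that face the lumen of the distal colon. The genes were chosen by name, as array rows that carry a single gene symbol, and all 10 were measured, each by 1 row, among 13215 named genes. Of these, 6 serve protein folding in the ER or answer its failure (Herpud1, Hspa5, Hsp90b1, Pdia4, Dnajb9 and Xbp1), 3 are targets of the transcription factor ATF4 (Asns, Trib3 and Chac1), and the last is Atf4 itself. The cells came from 4 Wistar rats aged 12 weeks, used 4 days after both adrenal glands were removed, with 0.9% NaCl to drink. The 2 aldosterone rats received the hormone under the skin (50 µg per 100 g body weight, plus a minipump set to 10 µg per kg and hour). Their cells were shaken off the everted colon for 40 min in 100 nM aldosterone. The 2 vehicle rats received injection, polyethylene glycol minipump and shaking without the hormone. Tissue was taken 2 h after injection, and all groups lacked adrenal hormones before it. Each rat gave 1 Affymetrix exon array, read here as the deposited log2 values.

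Proteins that enter the secretory pathway are folded in the ER by chaperones, and a surplus of unfolded protein starts the unfolded protein response (UPR). Its sensors are IRE1, which splices the Xbp1 messenger, ATF6, which is cut to release a transcription factor, and PERK, a kinase that phosphorylates the initiation factor eIF2alpha and so favours translation of ATF4. ATF4 is also reached without ER stress, through the kinase GCN2 when amino acids are short. Chaperone genes are known targets of ATF6 and XBP1, and genes of amino acid supply are known targets of ATF4.

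All 10 members had a promoter window in RefSeq (GRCr8 assembly, 250 bases before to 50 after the transcript start), and 4 elements were searched on both strands of 33469 such windows. The ER stress response element ERSE, searched as CCAAT, any 9 bases and CCACG, was found in 22 windows (0.0657%), among them those of Hspa5, Hsp90b1 and Xbp1. ERSE-II, searched as ATTGG, any 1 base and CCACG, was found in 17 windows (0.0508%), among them that of Herpud1. The C/EBP-ATF response element, at which ATF4 binds with a C/EBP partner, was searched as TGATGNAA and found in 3.98% of windows, including those of Herpud1, Trib3 and Chac1. The UPR element TGACGTGG was found in 0.595% of windows and in none of the members'. ERSE and ERSE-II are built of the same parts, since ATTGG is CCAAT on the other strand, but no matches overlapped in the members' windows. Pdia4, Dnajb9, Atf4 and Asns held none of these letters in this window, from which nothing follows about their regulation. Shown next are the stretches that hold the matches, upstream of the start, 5′ to 3′ on the strand of the gene, with the matched letters in capitals. Herpud1 is shown because its window alone among the members held both an ER stress element and a C/EBP-ATF element (chr19:10614806-10614906, minus strand). The stretches of Hspa5 (chr3:38452958-38453006, plus strand), Hsp90b1 (chr7:23012332-23012484, minus strand) and Xbp1 (chr14:84604543-84604591, plus strand) stand for the folding genes. Those of Trib3 (chr3:161275534-161275569, minus strand) and Chac1 (chr3:126795949-126795986, plus strand) stand for the ATF4 targets.
Herpud1: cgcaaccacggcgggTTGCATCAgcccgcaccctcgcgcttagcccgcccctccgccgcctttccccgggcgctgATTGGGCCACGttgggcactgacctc
Hspa5: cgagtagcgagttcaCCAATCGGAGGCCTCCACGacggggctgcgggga
Hsp90b1: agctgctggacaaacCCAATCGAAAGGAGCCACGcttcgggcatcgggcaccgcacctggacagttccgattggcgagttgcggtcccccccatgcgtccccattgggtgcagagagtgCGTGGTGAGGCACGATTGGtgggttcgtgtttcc
Xbp1: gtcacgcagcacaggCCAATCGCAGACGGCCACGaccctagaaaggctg
Trib3: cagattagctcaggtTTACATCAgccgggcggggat
Chac1: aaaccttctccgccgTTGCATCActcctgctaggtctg

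**Figure D1:**
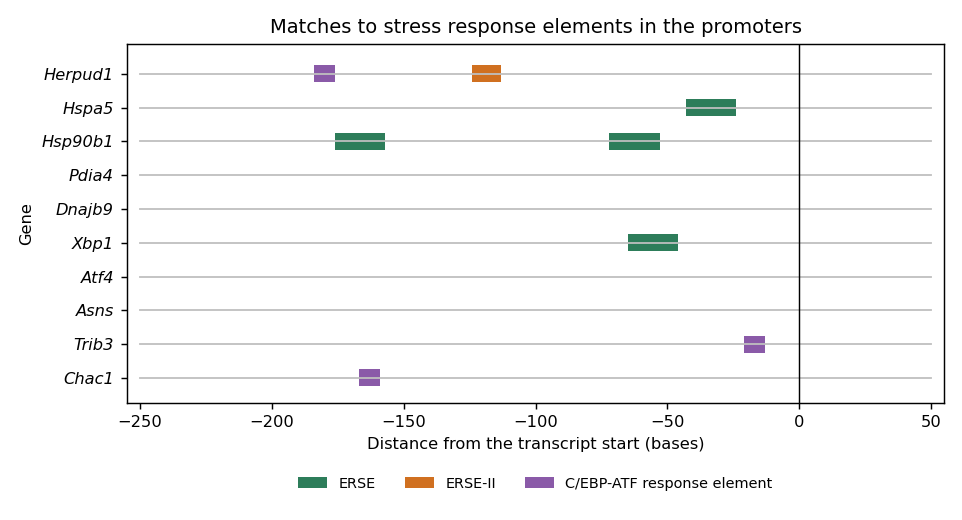
Matches to stress response elements in the promoter windows of the 10 genes, with distance from the RefSeq transcript start in bases on the x axis and 1 gene per line. Herpud1 carries an ERSE-II match at -124 to -114 and a C/EBP-ATF match at -184 to -177, Hsp90b1 carries 2 ERSE matches, and Pdia4, Dnajb9, Atf4 and Asns carry none of the 4 elements searched.

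Markers of the labelled cell type were bright on the arrays. Of 10 surface colonocyte markers 7 were measured, and Slc26a3, Car4, Krt20, Guca2a and Krt8 stood at 10.80 or more on all 4 arrays, while Slc9a3 ranged from 2.48 to 8.39. Row means of the measured markers of plasma and B cells, cycling crypt cells, stroma, leukocytes and enteroendocrine cells were all below 4, with Vim (3.98), Lyz2 (3.61) and Cd79b (3.15) among the highest, beside a median of row means of 2.35 over all rows. Of 4 measured goblet cell markers, Spink4 lay below that median, while Tff3 stood at 9.44 and 11.30 in the aldosterone rats, against 11.12 and 10.74 in the vehicle rats. Array medians were 2.33 and 2.44 with aldosterone, against 2.22 and 2.43 with vehicle. In bulk RNA, fewer cells of a type and less RNA per cell cannot be told apart.

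Herpud1 stood higher in both aldosterone rats, and it was the one member with that order. Its product, an ER membrane protein, helps to send misfolded proteins to degradation by the proteasome. Herpud1 (row 7182872) had log2 values of 9.40 and 9.28 in the aldosterone rats, against 8.89 and 8.69 in the vehicle rats. The groups did not overlap, and the gap between them was wider than the gap between the rats of either group. The difference was 0.55 on the log2 scale, or 1.46-fold (95% interval 0.20 to 0.90, unadjusted p = 0.0114 in limma). In limma the adjusted p over all 19403 rows (Benjamini and Hochberg) was 0.853, so that the gene did not pass the threshold of 0.05. That threshold was passed by 0 rows (0%) in this fit, while 879 rows (4.53%) had an unadjusted p under 0.05. Both aldosterone arrays lay above both vehicle arrays in 16.7% of all rows and below them in 11.1%. With a prior spread that followed the level of the row, limma called 21 rows (0.108%), none of them a member, and the interval for Herpud1 was 0.0013 to 1.10. Leaving out each array in turn kept its difference between 0.45 and 0.65. Of the 7 measured surface colonocyte markers, 6 were also higher and 3 (42.9%) were apart in that direction, as were 7 and 3 of the 7 dim crypt and cycling cell markers. The surface markers had a summed log2 level of 76.1 and 71.4 in the aldosterone rats, against 68.7 and 71.0 in the vehicle rats. The spread of that sum came largely from Slc9a3, at 8.39 and 3.44 in the aldosterone rats, against 2.48 and 3.99 in the vehicle rats. Among the surface markers Slc26a3, a chloride and bicarbonate exchanger gene, stood at 12.75 and 12.61, against 11.96 and 12.30 (difference 0.55). The part of these markers in the Herpud1 value was not tested.

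**Figure D2:**
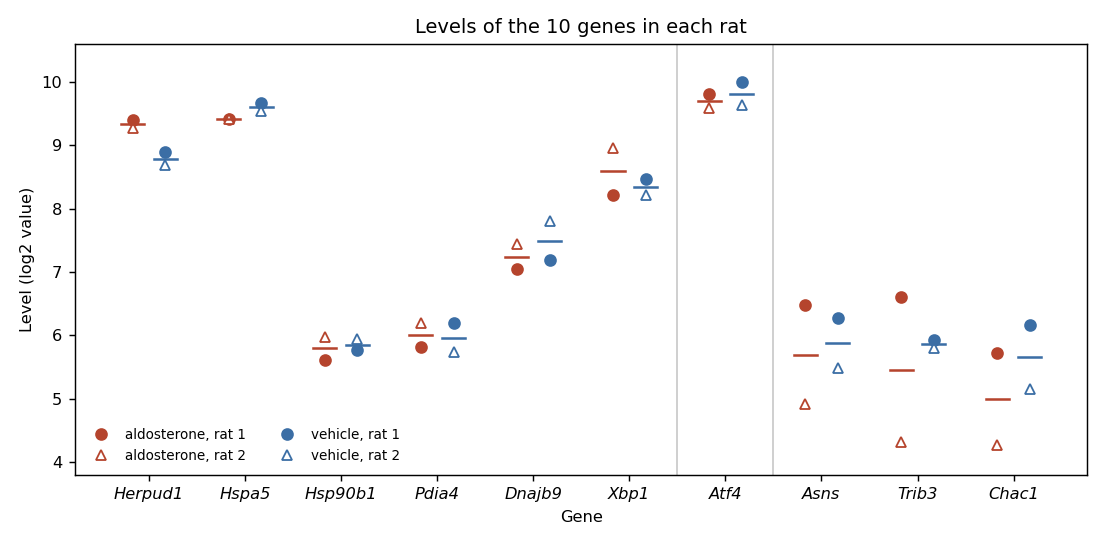
Level of each of the 10 genes in each rat, as log2 values on the y axis, with aldosterone rats in red left of vehicle rats in blue, filled circles for rat 1, open triangles for rat 2 and bars for group means. Herpud1 is higher in both aldosterone rats, Hspa5 is slightly lower in both, and the values of Asns, Trib3 and Chac1 spread widely within the groups.

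The ER chaperone genes did not have the order of Herpud1. Hspa5 encodes BiP, the main Hsp70 chaperone of the ER and the protein that holds the UPR sensors inactive. Hspa5 (row 7226454) stood at 9.42 and 9.42 in the aldosterone rats, against 9.67 and 9.55 in the vehicle rats. Both aldosterone values were lower, by 0.19 on average (interval -0.48 to 0.10, adjusted p = 1.00 in limma). Hsp90b1, which encodes the ER form of Hsp90, GRP94 (row 7323387), stood at 5.62 and 5.97, against 5.77 and 5.94, with overlapping groups and a difference of -0.06 (interval -0.52 to 0.40). Pdia4, a disulfide isomerase gene (row 7264461), stood at 5.82 and 6.20 in the aldosterone rats, against 6.19 and 5.73 in the vehicle rats. The groups overlapped, and the difference of 0.05 (interval -0.58 to 0.67) turned to -0.012 when arrays were centred on their medians. RefSeq lists pseudogenes of Hsp90b1 and Pdia4, and whether these share probes with the genes was not tested.

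Dnajb9 and Xbp1 also overlapped between the groups. Dnajb9 encodes ERdj4, a BiP co-chaperone and known XBP1 target (row 7306138). It stood at 7.05 and 7.44 in the aldosterone rats, against 7.19 and 7.80 in the vehicle rats (difference -0.25, interval -1.002 to 0.50). Xbp1, the transcription factor gene whose messenger IRE1 splices (row 7120646), stood at 8.22 and 8.96 in the aldosterone rats, against 8.46 and 8.22 in the vehicle rats. The row gathers probes of the whole gene, so spliced and unspliced forms are not separated here. The difference of 0.25 (interval -0.55 to 1.05) came from aldosterone rat 2, and it was -0.13 without that array. The same array held the highest values of the goblet cell markers Tff3, Agr2 and Zg16, with Agr2 at 7.69 and 8.52 in the aldosterone rats, against 7.89 and 7.91 in the vehicle rats. Zg16 stood at 6.39 and 8.06 in the aldosterone rats, against 5.14 and 4.45 in the vehicle rats. The other measured goblet marker, Spink4, stayed between 1.77 and 1.96, and the summed log2 level of the 4 was 25.4 and 29.8 in the aldosterone rats, against 25.9 and 24.96 in the vehicle rats. Some markers of plasma and B cells (Cd79b and Pou2af1) and of leukocytes (Lyz2 and Cd68) were highest on that array too. The other measured markers of these lists were not. Ms4a1, Ptprc and Cd8a were highest in vehicle rat 1, and Tnfrsf17, Csf1r and Itgam in vehicle rat 2. All of these rows were dim, with means below 4. Cd79b stood at 2.98 and 3.82 in the aldosterone rats, against 2.95 and 2.86 in the vehicle rats, Pou2af1 at 2.03 and 2.57, against 2.19 and 2.11, and Lyz2 at 3.52 and 4.19, against 3.60 and 3.12. The summed log2 level of the 4 measured plasma and B cell markers of 8 was 8.64 and 10.2, against 9.01 and 8.60, and that of the 6 measured leukocyte markers was 14.4 and 15.5, against 15.2 and 14.2. The part of these markers in the Xbp1 value was not tested.

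**Figure D3:**
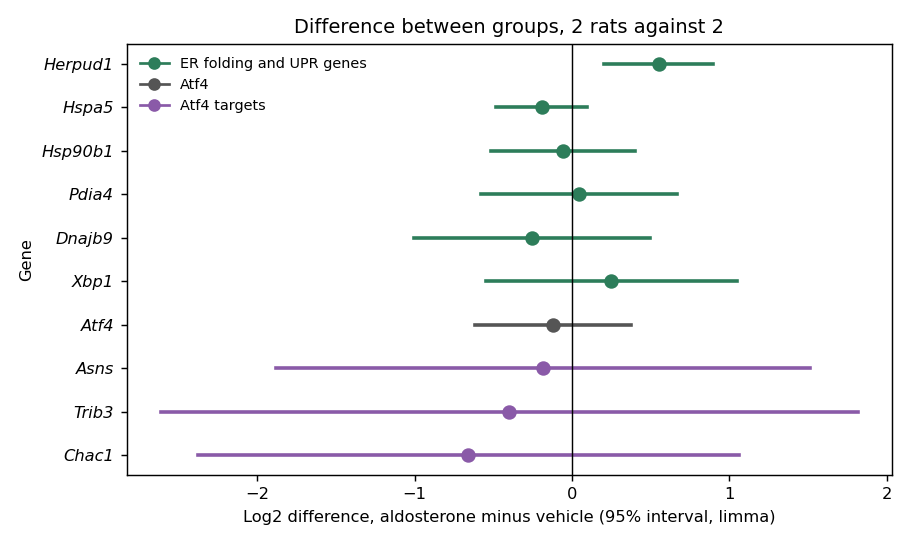
Log2 difference, aldosterone minus vehicle, for the 10 genes, with points for the estimate and lines for its 95% interval in limma with 2 rats per group. The interval of Herpud1 (0.20 to 0.90) lies above 0, the other 9 include 0, and those of Asns, Trib3 and Chac1 are the widest of the 10.

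The wider ER folding machinery lay around no difference. Among 21 measured chaperones and foldases of the ER beside the members, 10 were higher and 11 lower, with a median difference of -0.0035, against 0.024 over all rows. Limma called 0 of them at the adjusted threshold with either prior, and 1 had an unadjusted p under 0.05. That gene was Pdia5, a disulfide isomerase gene, at 4.28 and 4.08 in the aldosterone rats, against 3.77 and 3.64 in the vehicle rats (difference 0.48, adjusted p = 0.902 in limma). Pdia6, another isomerase gene, stood at 5.04 and 5.06, against 4.80 and 4.80. Canx, which encodes the lectin chaperone calnexin, stood at 8.52 and 8.69, against 8.39 and 8.25. Hspa13, a microsomal Hsp70 gene, went the other way at 5.83 and 5.71, against 6.34 and 5.92. The groups were apart in 6 of these 21 genes, 5 higher (23.8%) and 1 lower (4.76%), beside 16.7% and 11.1% of all rows and 13.4% and 18.7% of the rows with a mean of 4 or more, a level that 15 of the 21 reached.

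Herpud1 works in ER-associated degradation (ERAD), and the other genes of that route were mixed. Of 15 measured, 9 were higher and 6 lower (median 0.025), 0 were called by limma at the adjusted threshold with either prior, and 1 had an unadjusted p under 0.05. That one, Derl2, which encodes a derlin of the ERAD membrane complex, stood at 4.85 and 4.80 in the aldosterone rats, against 4.59 and 4.36 in the vehicle rats (difference 0.36, adjusted p = 1.00 in limma). Edem1, which encodes a protein that hands misfolded glycoproteins to ERAD, stood at 8.57 and 8.30, against 8.09 and 8.10. The groups of Edem1 and Derl2 were apart in the same direction as those of Herpud1. Of the 15 genes, 2 were apart higher (13.3%) and 1 lower (6.67%). That compares with 16.7% and 11.1% of all rows, and 13.4% and 18.7% of the rows with a mean of 4 or more. Syvn1, which encodes the ubiquitin ligase HRD1 that HERPUD1 binds, stood at 4.24 and 4.41, against 5.002 and 4.47. Os9, an ERAD lectin gene, stood at 7.69 and 7.90, against 7.74 and 7.44, with overlapping groups. In the 15 measured genes of ER translocation, signal peptide cleavage and N-glycosylation, 7 were higher and 8 lower, 0 were called with either prior and 0 had an unadjusted p under 0.05. Sec61a1, the gene of the channel that lets nascent chains enter the ER, stood at 8.64 and 8.85, against 9.25 and 8.96. Ssr3, Ssr1 and Rpn1, of the translocon-associated and oligosaccharyl transferase complexes, differed by 0.16, 0.27 and 0.41, each with an interval that included 0.

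The listed sensors and transducers of the UPR were more often lower than higher, with 1 higher and 8 lower of 9 measured. Their median was -0.11. Beside sensors, the list holds Mbtps1, Mbtps2, Creb3, Creb3l1, Creb3l2 and Creb3l3. Of all 19403 rows 8089 were lower, as were 2670 of the 4815 rows with a mean of 4 or more. Limma called 0 of the 9 genes with either prior, and 1, Atf6b, had an unadjusted p under 0.05. Atf6b, a relative of ATF6 (row 7220764), stood at 6.72 and 6.09 in the aldosterone rats, against 7.13 and 7.06 in the vehicle rats (difference -0.69, interval -1.35 to -0.03, adjusted p = 1.00 in limma). Eif2ak3, which encodes PERK (row 7254721), stood at 6.79 and 6.81, against 7.80 and 7.14 (difference -0.67, interval -1.35 to 0.01). Both genes were lower in both aldosterone rats, as was Creb3l1, an ER-anchored transcription factor gene, at 7.39 and 7.36, against 7.79 and 7.53. Those 3 genes are 33.3% of the list, beside 11.1% of all rows and 18.7% of the rows with a mean of 4 or more. Ern2, which encodes the IRE1 form of mucus-producing epithelia, overlapped at 3.35 and 4.39, against 4.09 and 4.79, and its difference of -0.57 was -0.054 without aldosterone rat 1. Atf6 and Ern1, the genes of ATF6 and the common IRE1, were not analysed here.

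Of 10 measured genes that set or reverse eIF2alpha phosphorylation or act in its exchange factor, 1 was higher and 9 lower (median -0.13), with 0 called by limma under either prior and 0 at an unadjusted p under 0.05. Of all 19403 rows 8089 were lower, as were 2670 of the 4815 rows with a mean of 4 or more, a level that 8 of the 10 genes reached. In 1 of the 9 lower genes the difference was only -0.000155. The groups overlapped in all 10 genes, beside 72.2% of all rows. The median ran from -0.45 without vehicle rat 2 to 0.14 without vehicle rat 1. Ppp1r15a, which encodes GADD34, the inducible subunit of the eIF2alpha phosphatase, stood at 6.59 and 6.25, against 7.23 and 6.54 (difference -0.47, interval -1.25 to 0.32), a difference of -0.12 without vehicle rat 1 and -0.81 without vehicle rat 2. Eif2ak4, which encodes the amino acid sensor GCN2, stood at 4.01 and 3.73, against 4.56 and 3.73. The differences of Eif2b4 and Eif2b2, subunit genes of the exchange factor that eIF2alpha phosphorylation blocks, were -0.37 and -0.26.

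**Figure D4:**
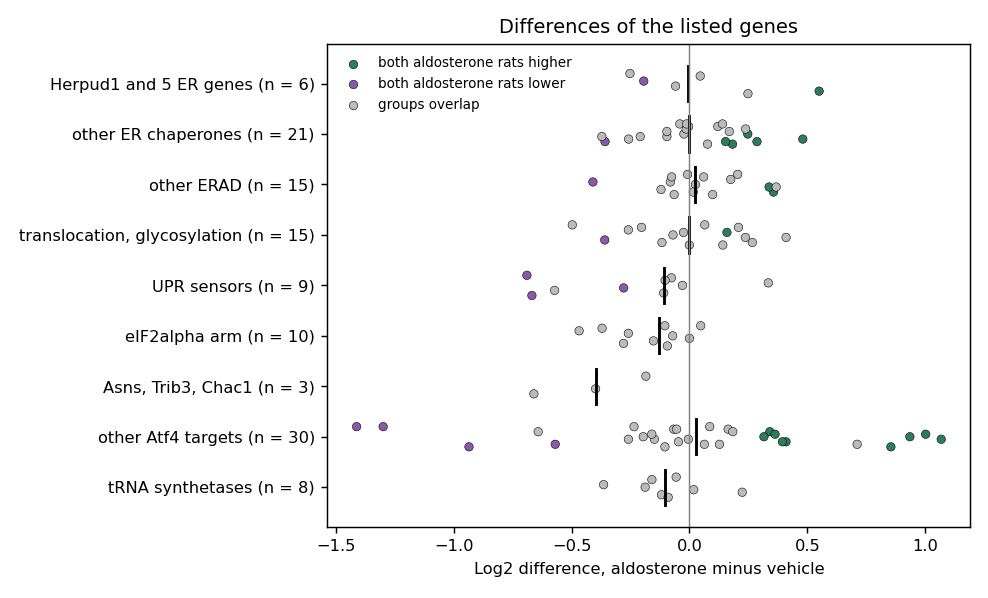
Log2 difference, aldosterone minus vehicle, of each measured gene in 9 groups, with green points where both aldosterone rats were higher, purple where both were lower, grey where the groups overlapped, and a black bar for the median. The medians lie between -0.13 and 0.03 in all groups except the 3 ATF4 targets (-0.40), and the 30 other ATF4 targets spread from -1.41 to 1.07.

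Atf4, Asns, Trib3 and Chac1 differed less between the groups than between the rats of either group, except that the vehicle rats were close together in Trib3. Atf4 (row 7318949) stood at 9.81 and 9.58 in the aldosterone rats, against 10.00 and 9.63 in the vehicle rats (difference -0.12, interval -0.61 to 0.38). ATF4 is controlled largely at translation, which the arrays do not measure. Asns encodes asparagine synthetase, the classic gene induced by amino acid shortage. It stood (row 7262054) at 6.48 and 4.92 in the aldosterone rats, against 6.28 and 5.49 in the vehicle rats. The vehicle values lay inside the range of the aldosterone values, and the difference was -0.18 (interval -1.88 to 1.51). Trib3, which encodes a pseudokinase that feeds back on ATF4 (row 7246655), stood at 6.60 and 4.32, against 5.92 and 5.80. Here the vehicle rats were close together and the aldosterone rats lay on either side of them (difference -0.40, interval -2.61 to 1.81). Chac1, which encodes a glutathione-degrading enzyme (row 7231595), stood at 5.72 and 4.27, against 6.17 and 5.15 (difference -0.66, interval -2.38 to 1.06). All 3 genes were lowest in aldosterone rat 2. Without that array the differences were 0.59 for Asns, 0.74 for Trib3 and 0.064 for Chac1, all turned to the positive side.

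In each of the 3 targets, rat 1 exceeded rat 2 in both groups. The gap was 1.56 for Asns, 2.29 for Trib3 and 1.45 for Chac1 in the aldosterone group, against 0.79, 0.12 and 1.02 in the vehicle group. The standard deviation within groups was 0.87, 1.14 and 0.88, wider than in 97.3%, 99.0% and 97.7% of the 4815 rows with a mean of 4 or more. Their median was 0.26. In the 6 folding genes it ran from 0.064 for Hspa5 to 0.39 for Xbp1, with Herpud1 at 0.12, tighter than most rows. The same order of rats was found in 40.1% of rows with a mean of 4 or more, and the replicate numbers are not stated to mark a shared day or batch.

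**Figure D5:**
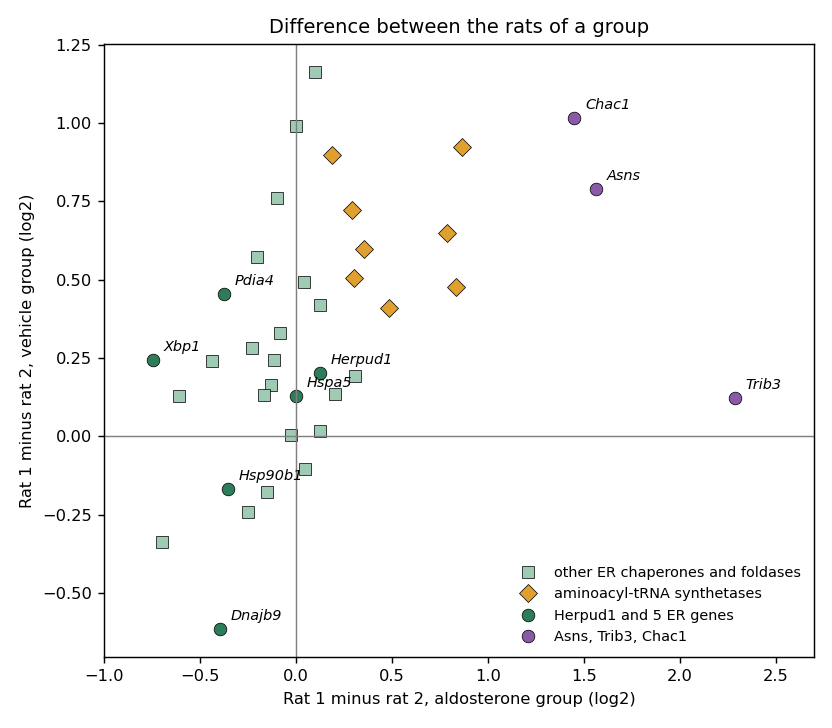
Rat 1 minus rat 2 in log2 values, in the aldosterone group on the x axis and the vehicle group on the y axis, 1 point per gene. Asns, Trib3 and Chac1 lie to the right at 1.45 to 2.29, the 8 aminoacyl-tRNA synthetases all lie in the upper right, and Herpud1 and Hspa5 lie close to the origin.

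Aminoacyl-tRNA synthetases, which charge tRNAs with amino acids and include known ATF4 targets, had the same order of rats. In all 8 measured, rat 1 exceeded rat 2 in both groups, by a median of 0.42 in the aldosterone group and 0.62 in the vehicle group. Across all rows whose mean was at least 4 these medians were 0.035 and 0.19. Between the groups 2 were higher and 6 lower (median -0.10), and 0 were called by limma with either prior or had an unadjusted p under 0.05. That median ran from -0.41 without vehicle rat 2 to 0.22 without vehicle rat 1. Sars1 stood at 9.01 and 8.18 in the aldosterone rats, against 8.995 and 8.52 in the vehicle rats, and Yars1 at 5.99 and 5.70, against 6.39 and 5.67. Nars1 stood at 6.08 and 5.73, against 6.56 and 5.97 (difference -0.36, or -0.065 without vehicle rat 1), and Wars1 at 5.38 and 4.90, against 5.12 and 4.71. Among the other ATF4 targets, Slc7a5, a large neutral amino acid transporter gene, and Mthfd2, a mitochondrial folate enzyme gene, had this order too, and both were named after their values were seen. Slc7a5 stood at 5.13 and 3.60, against 5.59 and 4.43, and Mthfd2 at 6.54 and 5.12, against 6.57 and 5.41. The order was found in 15 of the 30 other ATF4 targets measured (50.0%), and in 6 of the 21 other ER chaperones (28.6%). It was found in 18.5% of all rows and in 40.1% of rows with a mean of 4 or more. That level was reached by 18 of these 30 targets and 15 of these 21 chaperones.

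Between the groups, the 30 other ATF4 targets went both ways, 15 higher and 15 lower, with a median of 0.029. Limma called 0 of them with either prior, while 4 were higher and 3 lower at an unadjusted p under 0.05, beside 2.19% and 2.34% of all rows. The lower genes were Atf3 and Ddit3, stress transcription factor genes, and Gdf15, a stress-induced cytokine gene. Gdf15 stood at 5.80 and 5.02 in the aldosterone rats, against 7.06 and 6.59 in the vehicle rats (2.66-fold lower, adjusted p = 0.853 in limma). The values of Ddit3, which encodes CHOP and was chosen once they were known, were 5.72 and 5.43, against 6.78 and 6.24 (difference -0.93, adjusted p = 0.884 in limma). Atf3 stood at 8.89 and 9.15 in the aldosterone rats, against 10.32 and 10.31 in the vehicle rats. Cebpb, which encodes a C/EBP factor, stood at 6.405 and 6.23, against 5.59 and 5.04. Atf3 was 2.46-fold lower and Cebpb 2.00-fold higher, with an adjusted p of 0.437 and 0.837 in limma. With the prior that followed the level of the row, the adjusted p in limma was 0.0819 for Atf3 and 0.690 for Cebpb. Slc7a11, the cystine transporter gene, stood at 2.91 and 2.96, against 1.81 and 2.19, vehicle values below the median of row means of 2.35, so that no fold is given. Phgdh, the first enzyme gene of serine synthesis, stood at 3.48 and 3.53, against 3.09 and 3.13. Slc6a9, a glycine transporter gene, stood at 5.14 and 4.46, against 4.11 and 3.78, and like Phgdh it was named after its values were seen. Atf3, Ddit3 and Gdf15 are also induced by routes other than ATF4.

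Set side by side, the 6 folding genes had a median difference of -0.0068 and the 3 ATF4 targets one of -0.40, with 0.024 over all rows and -0.041 over those whose mean was at least 4. These medians differed by 0.39. Over single arrays, the median level of the folding genes minus that of the targets had a standard deviation within groups of 1.43, larger than that difference. Without aldosterone rat 2 the median of the targets was 0.59 and that of the folding genes -0.17. Without aldosterone rat 1 they were -1.38 and 0.18. The folding genes thus stood above the targets without aldosterone rat 1 and below them without aldosterone rat 2. No test was made over the chosen genes.

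Genes that carry the same promoter letters did not share a direction either. Among 13 measured genes with an ERSE, 4 were higher and 9 lower (median -0.06), and among 10 with an ERSE-II, 7 were higher and 3 lower (median 0.023). The 348 measured genes with a C/EBP-ATF element had a median of 0.014. All of these sets include the members that hold the element, and the ERSE median is the value of Hsp90b1. Of all 19403 rows 11314 were higher and 8089 lower. Genes with a mean of 4 or more numbered 9 with an ERSE, 6 with an ERSE-II and 67 with a C/EBP-ATF element. Their medians were -0.059, -0.060 and -0.090, beside -0.041 over all rows at that level. Beside the members, 6 of the 17 other ER chaperones with a promoter window held an ERSE or ERSE-II (Hyou1, Dnajb11, Dnajc3, Calr, Canx and Ero1b). Of the 8 synthetases, 4 held a C/EBP-ATF element (Mars1, Nars1, Tars1 and Yars1), beside 5 of the 26 other ATF4 targets with a window and 1 of the 10 genes of eIF2alpha phosphorylation and exchange.

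The genes whose pattern over the 4 arrays was most like that of Herpud1 came from outside the ER lists. Likeness was the root mean square difference in log2 values, each centred on its row mean, over 4131 other genes with a mean of 4 or more. The nearest were Pgap1 (0.028), a gene of GPI anchor remodelling in the ER, Mical2 (0.039), an actin-oxidising monooxygenase gene, and Hmox2 (0.054), which encodes the constitutive haem oxygenase. Pdcl (0.054), a phosducin-like gene, and Lig3 (0.057), a DNA ligase gene, followed. Pgap1 stood at 11.13 and 11.08 in the aldosterone rats, against 10.65 and 10.47 in the vehicle rats. The difference between the groups is part of this measure, so that the order of these genes is a description. Among the other 9 members, Pdia4 was the nearest at 0.32, ranked 1476 of 4131, and Trib3 the farthest at 0.90.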

How the data were processed

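The log2 values analysed are those the authors deposited, 1 per array row (a transcript cluster, which gathers the probes of a gene) for each of 4 rats. The tools listed, per the submitters' processing notes, are Affymetrix Expression Console, Partek and RMA, a method that corrects background, normalizes and summarises probes, and their versions and roles are not stated. The log2 scale was read from the range of the values, 1.36 to 13.7. The genome build is not given in the sources used here, and detection calls were not used. Of 19403 rows, 13327 had 1 gene symbol in the platform annotation, 620 had several and 5456 had none here. Where rows shared a gene, the one of highest mean was kept.

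Aldosterone was compared with vehicle, 2 rats each, using R 4.3.3 and limma 3.58.1 (two-sided moderated test with a constant prior), adjusted over all rows by Benjamini and Hochberg. Intervals are 95% intervals of that fit, and the fit was tested on simulated data. The number of arrays limits the precision. The alternatives were quantile normalization, median centring, 2 filters on low rows, a replicate block, other priors, the mean over rows, and leaving out each array. Lists were described by counts and medians. The members and lists were chosen with earlier results of these data known. Named in the text are the members, up to 4 genes per list with the smallest unadjusted p, and the 5 genes most like Herpud1. Ddit3, Phgdh, Slc6a9, Slc7a5 and Mthfd2 were named after their values were seen, and so were marker genes. Listed genes with promoter matches are named as well. Promoters came from RefSeq (GRCr8). Plots were made with Python 3.11.15 and matplotlib 3.10.9.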

Additional observations from a re-analysis of the deposited data

How the results depend on the processing

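None of the 10 members passed an adjusted p of 0.05 in limma in the constant prior fit or in any of the 13 alternatives. Rows called were 0, except for 21 with the intensity trend and 1, Scnn1g, with rows below the median of row means left out, and 0 with each array left out. Herpud1 and Hspa5 kept their direction in every alternative run. The median log2 difference moved by more than the spread within groups in some fits that left out 1 array. It ran from -0.17 to 0.18 for the 6 folding genes, -1.38 to 0.59 for the 3 ATF4 targets and -0.26 to -0.026 for the sensors and transducers. For other chaperones it ran from -0.063 to 0.16, for other ERAD genes from -0.16 to 0.23 and for translocation from -0.15 to 0.22. In the remaining lists the median moved by less than that spread in each such fit. It ran from -0.45 to 0.14 for eIF2alpha kinases, exchange factor and phosphatase, and from -0.41 to 0.22 for synthetases. For the other ATF4 targets it ran from 0.048 to 0.099. Single genes that changed sign with an array left out ran from -0.24 to 0.12 (Hsp90b1), -0.13 to 0.62 (Xbp1), -0.56 to 0.055 (Dnajb9), -0.18 to 0.27 (Pdia4), -0.96 to 0.59 (Asns), -1.54 to 0.74 (Trib3), -1.38 to 0.064 (Chac1) and -0.30 to 0.066 (Atf4). Of the other named genes they ran from -0.033 to 0.85 (Rpn1), -0.018 to 0.47 (Wars1), -0.55 to 0.17 (Yars1), -0.58 to 0.26 (Sars1), -0.70 to 0.14 (Eif2ak4), -0.88 to 0.14 (Eif2b4), -0.78 to 0.26 (Eif2b2), -1.41 to 0.12 (Slc7a5) and -0.87 to 0.55 (Mthfd2). With arrays centred on their medians Pdia4 was -0.012. These fits hold fewer samples, and a lone array is taken to vary as the other group does. Same-numbered rats deviated together weakly (correlation 0.15 over all rows and 0.093 in rows whose mean was at least 4), and with 2 pairs the numbers do not show a pairing. With the replicate number as a block 0 rows were called, and Herpud1 had a difference of 0.55 with an adjusted p of 0.629 in limma.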
